A study of Mus musculus with 16 samples.

Results

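The heat shock chaperones of the cytosol and mitochondria were examined in RNAseq data from femoral cortical bone as a list of 39 gene symbols, covering the heat shock factors, the HSP70 and HSP90 families with their helpers, the CCT ring and the mitochondrial folding machinery. The members were chosen by name, as a list selected on the already known log2 differences between these unloaded and control mice, so the differences between the groups that are given for its members are descriptions and support nothing by themselves. Of the 39 symbols, 38 were found, as 39 of the 36829 features, because Hspa14 is listed as 2 features (11631 and 4314 bases, called row 1 and row 2 here). Cryab was not analysed here. A mean of at least 0.5 RPKM over all mice was reached by 38 of the 39 features, and Hspa1b, with a mean of 0.334 RPKM, was the one below it. The mice were 11-week-old females of the C57Bl/6 strain (C57Bl/6J in the study's methods), 8 with normal weightbearing (Control) and 8 in which the hindlimbs were kept off the floor for 7 days by a tail harness (hindlimb unloading, HLU). The study's methods describe the harness and its anesthesia for HLU mice alone, so these and the unloading cannot be told apart. Both bone ends were cut off and the marrow was flushed with saline before freezing, and each mouse gave 1 library.

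Chaperones bind unfolded or newly made proteins and keep them from aggregating. HSP70 proteins hold short exposed stretches in cycles that J-domain proteins start and exchange factors end, HSP90 takes over partly folded kinases and hormone receptors, and the CCT ring encloses actin and tubulin. When unfolded protein builds up, the transcription factor HSF1 is released from chaperones and binds heat shock elements, inverted repeats of the letters GAA, in front of many of these genes. Every cell of bone and marrow uses this machinery, so the values are sums over osteocytes, osteoblasts and whatever marrow remained, in which fewer cells of a type and less RNA per cell cannot be told apart.

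The letters to which HSF1 is known to bind were looked up in RefSeq windows of 300 bases (assembly GRCm38.p6, 250 bases before to 50 after a transcript's start) to show the sequence feature for which this family is known. Windows were at hand for 31 of the 39 symbols and not for 8, among them Hsp90aa1, Hsp90ab1, Hspa8 and Hsf1. A row of 3 units, that is GAA, NN (any 2 bases), TTC, NN and GAA, or its reverse complement TTC, NN, GAA, NN and TTC, so that both strands were searched, was in the windows of 5 of the 31 members (16.1%) and of 179 of 27025 symbols in all (0.662%). The shorter pair of units, GAANNTTC or TTCNNGAA, which every 3-unit row also contains, was in 16 of the 31 members (51.6%) and in 17.0% of all symbols. A match is a description of letters and not a bound site. The 4 windows that follow hold 1 or more 3-unit rows, printed 5′ to 3′ on the gene's strand with the matched bases in capitals. Where rows overlap, the capitals cover them together, 18 bases from 2 rows in Hspe1 and 23 bases from 3 rows in Chordc1. The windows are those of Hspe1 (chr1:55087898-55088197, plus strand, capitals 89 to 72 bases before the start), Chordc1 (chr9:18292017-18292316, plus strand, from 4 bases before to 19 after the start), Dnajb6 (chr5:29735648-29735947, plus strand, 46 to 34 bases before the start) and Hsph1 (chr5:149636287-149636586, minus strand, 37 to 49 bases after the start).
Hspe1: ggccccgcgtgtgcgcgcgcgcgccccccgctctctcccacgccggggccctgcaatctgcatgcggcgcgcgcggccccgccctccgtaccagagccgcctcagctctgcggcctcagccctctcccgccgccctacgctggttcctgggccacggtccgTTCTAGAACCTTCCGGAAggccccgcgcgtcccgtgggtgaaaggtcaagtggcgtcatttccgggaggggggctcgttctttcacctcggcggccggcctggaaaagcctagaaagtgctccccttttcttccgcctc
Chordc1: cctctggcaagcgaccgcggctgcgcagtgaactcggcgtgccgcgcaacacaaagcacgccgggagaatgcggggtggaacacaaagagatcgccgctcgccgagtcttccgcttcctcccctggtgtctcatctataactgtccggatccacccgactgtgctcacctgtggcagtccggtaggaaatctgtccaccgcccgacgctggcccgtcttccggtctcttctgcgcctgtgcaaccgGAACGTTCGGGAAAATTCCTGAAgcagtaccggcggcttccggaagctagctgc
Dnajb6: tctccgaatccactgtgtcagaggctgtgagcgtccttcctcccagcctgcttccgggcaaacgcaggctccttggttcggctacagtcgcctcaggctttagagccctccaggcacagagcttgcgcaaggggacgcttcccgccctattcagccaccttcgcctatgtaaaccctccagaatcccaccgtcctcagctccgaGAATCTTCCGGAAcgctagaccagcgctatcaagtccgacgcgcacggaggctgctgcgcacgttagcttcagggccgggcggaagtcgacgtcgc
Hsph1: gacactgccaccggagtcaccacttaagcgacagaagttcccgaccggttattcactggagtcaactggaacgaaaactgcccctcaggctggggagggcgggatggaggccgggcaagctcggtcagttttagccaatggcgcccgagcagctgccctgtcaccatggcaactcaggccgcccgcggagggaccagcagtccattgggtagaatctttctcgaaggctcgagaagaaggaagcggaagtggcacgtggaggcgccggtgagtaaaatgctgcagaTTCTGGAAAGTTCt
The Hspd1 window (chr1:55087883-55088182, minus strand) shares 285 bases with that of Hspe1, since both genes start from the same stretch in opposite directions. Its 2 overlapping 3-unit rows lie at chr1:55088059-55088076, the same bases as in Hspe1, 144 to 127 bases before the Hspd1 start. A stretch of the window reads as follows.
Hspd1: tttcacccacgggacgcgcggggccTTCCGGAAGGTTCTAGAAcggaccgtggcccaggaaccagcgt
Hspa1a (chr17:34972107-34972406, minus strand) is shown as well, chosen after its values were seen. Its window has a single pair of units, in capitals, 104 to 97 bases before the start, and it differs from the Hspa1b window at 4 of 300 bases.
Hspa1a: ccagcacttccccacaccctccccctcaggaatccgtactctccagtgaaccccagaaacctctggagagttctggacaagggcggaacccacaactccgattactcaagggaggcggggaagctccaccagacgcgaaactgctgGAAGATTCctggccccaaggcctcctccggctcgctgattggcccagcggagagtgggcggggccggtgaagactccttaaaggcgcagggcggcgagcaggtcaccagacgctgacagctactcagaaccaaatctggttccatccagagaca

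Library depth was uneven but alike in both groups. Library sizes, as implied by the RPKM steps, were 7067512 to 19708590 reads in Control and 7838277 to 21363584 in HLU libraries. Defining genes of bone were present in every mouse, and Pdpn, the lowest of 10 osteoblast and osteocyte genes, was at 3.36 RPKM or more. No feature of the 16973 tested passed an adjusted p of 0.1 by limma (1 did with voom on recovered reads), and 1049 (6.18%) had an unadjusted p under 0.05. A feature is named called below when its unadjusted p was under 0.05 and its change at least 1.2-fold, which held for 996 features (5.87%), 188 higher and 808 lower. Rescaling the libraries by the median of ratios moved this split to 381 higher and 394 lower (49.2% higher in place of 18.9%), and the median log2 difference of all features from -0.10 to -0.01.

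The chaperones lay mostly lower in HLU bone. By the measure that the list was chosen with, 13 of 38 members were called lower and 0 higher, where 4.76% of all features were called lower and 1.11% higher. Their median log2 difference was -0.24, against -0.10 over all features, and 33 of 38 lay below 0, as did 67.9% of all features. With median-of-ratios rescaling, 7 members were called lower (2.32% of all features), with a median of -0.15, and 30 of 38 lay below the median of all features. The groups overlapped for all 39 members, and 5 of the 16973 features tested (0.0295%) had groups that did not overlap. The lowest adjusted p of a member was 0.744 by limma.

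Several marker lists of other cells had medians away from the -0.10 of all features in the same libraries. All 11 proliferation genes had a log2 difference below 0 (median -0.48), with 1 called lower, Pcna, the clamp of DNA replication (-0.53 ± 0.24). Their summed level was 492 to 916 RPKM in Control and 242 to 839 in HLU mice. All 9 B lymphocyte features also lay below 0 (median -0.28, Vpreb3 called lower), as did all 11 erythroid genes, whose values are given with Dnajb1, and 6 of 7 granulocyte genes (median -0.13, 0 called). Summed B lymphocyte levels were 44.2 to 140.6 RPKM in Control and 38.5 to 99.7 in HLU mice, and granulocyte levels 17879 to 38213 and 12713 to 45100.3. None of the 6 adipocyte genes tested lay below 0 (median 0.46, Fabp4 called higher), with sums of 409 to 788 and 487 to 839 RPKM. Of 10 osteoblast and osteocyte genes 3 lay below 0 (median 0.16, Mepe called higher), with sums of 949 to 2286 and 1256 to 2747 RPKM. Of 10 immediate early genes 8 lay below 0 (median -0.05, Btg2 called lower). The part of these cell types in the chaperone differences was not tested beyond the fit with erythroid and granulocyte scores given with Dnajb1.

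**Figure D1:**
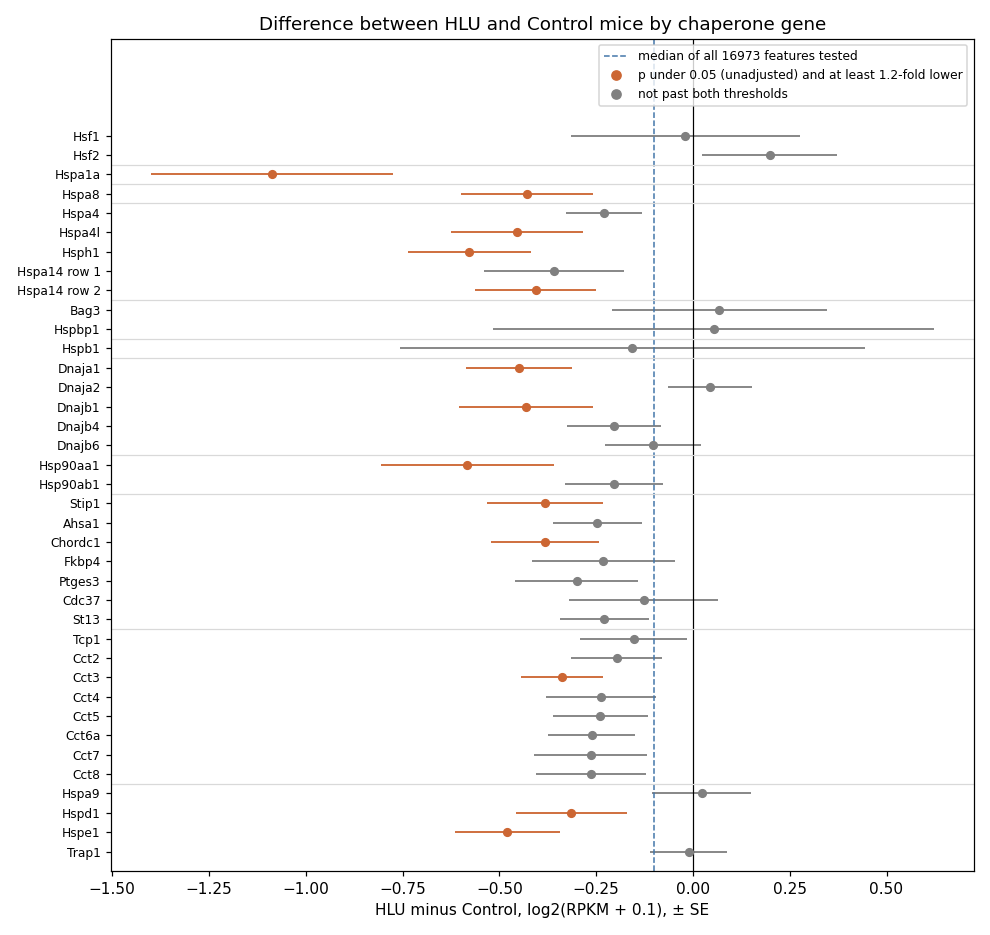
The points give the fitted difference between HLU and Control mice on the log2(RPKM + 0.1) scale for the 38 members tested, ordered by role, with lines of 1 standard error, and the dashed line gives the median of all features. The 13 called members lie between -1.09 for Hspa1a and -0.31 for Hspd1, and Hsf2 lies highest at 0.20.

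**Figure D2:**
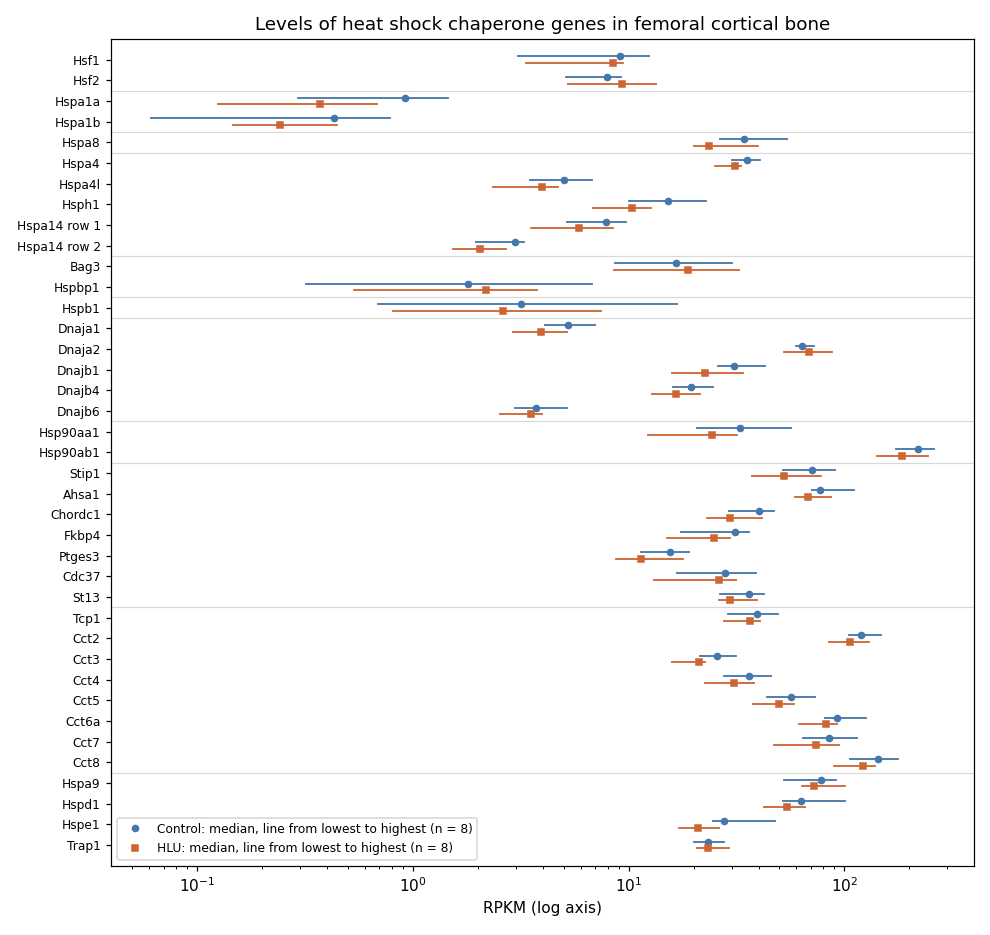
For all 39 members, the symbols give the group median and the lines the lowest to the highest RPKM of the 8 mice of each group, on a log axis. Lines of both groups overlap for every member, and mean levels run from 0.334 RPKM for Hspa1b to 205 for Hsp90ab1.

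Neither heat shock factor was called. Hsf1, the factor that switches the others on, was at 8.35 ± 3.75 RPKM (SD, n = 8) in Control and 7.71 ± 2.03 in HLU bone. Its log2 difference was -0.02 ± 0.30 (SE), and turned to 0.07 after median-of-ratios rescaling. Hsf2, a related factor that can pair with HSF1, ran from 5.10 through a median of 7.98 to 9.23 RPKM in Control mice and from 5.25 through 9.32 to 13.4 in HLU mice. The 5 highest Hsf2 values were all in HLU mice, while the lower values of both groups overlapped, and the log2 difference of 0.20 ± 0.18 was not called.

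The stress-induced HSP70 genes had the lowest levels of the list. Hspa1a ran from 0.295 through a median of 0.921 to 1.45 RPKM in Control mice and from 0.125 through 0.372 to 0.684 in HLU mice. All 8 HLU mice lay under the Control median and 6 Control mice lay above every HLU mouse, but the lowest Control mouse lay inside the HLU range. The log2 difference was -1.09 ± 0.31, or 2.13-fold lower in HLU, and it was -0.47 with a pseudocount of 1 in place of 0.1, where Hsp90aa1 (-0.56) and Hsph1 (-0.54) had wider differences. These levels rest on 5 to 70 reads a library. Hspa1b, its near-identical neighbor, was at 0.401 ± 0.251 RPKM in Control and 0.268 ± 0.125 in HLU bone (SD, n = 8) and was not tested. Reads of such copies can be assigned to either gene. The RPKM of both were also summed, which gave 1.33 ± 0.525 in Control and 0.646 ± 0.267 in HLU mice, with ranges of 0.356 to 1.85 and 0.271 to 1.13. Implied lengths differ, 2926 bases for Hspa1a and 5009 for Hspa1b, so this sum still depends on which gene a read was assigned to.

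Hspa8, the HSP70 that cells make without stress, was far more abundant. Its level ran from 26.7 through a median of 34.4 to 54.2 RPKM in Control mice and from 20.0 through 23.6 to 39.6 in HLU mice. There 5 HLU mice lay below every Control mouse, and the other 3 lay within the Control range. The log2 difference was -0.43 ± 0.17 as deposited and -0.34 after median-of-ratios rescaling, where it was no longer called.

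Among the larger HSP70 relatives, 3 of 5 features were called lower. Hsph1, the HSP110 that empties HSP70 of its nucleotide, ran from 10.1 through 15.2 to 22.8 RPKM in Control mice and from 6.83 through 10.4 to 12.6 in HLU mice. Its HLU values were all below the Control median, 4 of them below every Control mouse, and 6 Control mice lay above every HLU mouse. The log2 difference of Hsph1 was -0.58 ± 0.16, or 1.49-fold lower. Hspa4l, a relative known from testis, ran from 3.50 through 5.02 to 6.76 RPKM in Control and from 2.36 through 3.97 to 4.73 in HLU mice, all of which lay under the Control median (log2 difference -0.45 ± 0.17). The most abundant relative, Hspa4, ran from 30.2 through 35.5 to 40.5 RPKM and from 25.1 through 31.2 to 33.3, and although all HLU mice lay under the Control median its change of 1.17-fold was too small to be called. Hspa14, which works at the ribosome, had 2.83 ± 0.517 RPKM in Control and 2.12 ± 0.480 in HLU mice for row 2, which was called at -0.41 ± 0.16. Row 2 ran from 1.96 through 2.98 to 3.29 RPKM in Control and from 1.54 through 2.05 to 2.70 in HLU mice. The longer row 1 was at 7.65 ± 1.59 and 6.04 ± 1.70 RPKM, with -0.36 ± 0.18.

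The exchange factors Bag3 and Hspbp1 and the small heat shock protein Hspb1 varied widely between mice, and none of them was called. Bag3, which also links HSP70 to autophagy, ran from 8.66 through 16.6 to 30.1 RPKM in Control and from 8.60 through 18.8 to 32.4 in HLU mice (log2 difference 0.07 ± 0.28). Hspb1, which holds unfolded proteins without using ATP, ran from 0.693 through 3.19 to 16.7 RPKM in Control and from 0.806 through 2.61 to 7.46 in HLU mice (-0.16 ± 0.60). The Control range of Hspb1 thus took in that of HLU whole. Hspbp1 was at 2.97 ± 2.73 and 2.24 ± 1.10 RPKM, with a log2 difference of 0.05 ± 0.57.

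The J-domain proteins, which bring clients to HSP70, were divided, with 2 of 5 called lower. Dnaja1 ran from 4.09 through 5.25 to 7.01 RPKM in Control mice and from 2.91 through 3.92 to 5.17 in HLU mice. All 8 HLU mice were under the Control median of Dnaja1 and 4 were under every Control mouse, with a log2 difference of -0.45 ± 0.14. Dnajb1, the stress-induced partner of HSP70, ran from 26.0 through 30.8 to 42.8 RPKM in Control and from 15.9 through 22.7 to 33.9 in HLU mice. The HLU values of Dnajb1 were divided, with 5 below every Control mouse and 3 above the Control median, and the log2 difference was -0.43 ± 0.17. Dnaja2, at the highest level of this family, ran from 59.8 through 63.9 to 72.7 and from 52.7 through 68.2 to 87.4 RPKM, with HLU mice on both sides of the whole Control range (0.04 ± 0.11). Dnajb4 was at 19.6 ± 3.20 and 17.0 ± 2.71 RPKM (-0.20 ± 0.12), and Dnajb6, which keeps polyglutamine proteins apart, at 3.75 ± 0.680 and 3.47 ± 0.459 (-0.10 ± 0.12).

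The HSP90 genes differed in level and in spread. Hsp90aa1, the stress-responsive form, ran from 20.7 through a median of 33.0 to 56.3 RPKM in Control mice and from 12.3 through 24.5 to 31.9 in HLU mice. All HLU mice lay under the Control median and 4 Control mice lay above every HLU mouse. Its log2 difference was -0.58 ± 0.22, or 33.2% lower. Hsp90ab1, the form made at all times, had the highest level of the list, from 174 through 219 to 261 RPKM in Control and from 142 through 184 to 244 in HLU mice, and its log2 difference of -0.20 ± 0.13 was not called. Whether these differences differ from each other was not tested.

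Of the 7 cochaperones that hand proteins to HSP90 or tune its cycle, 2 were called lower, where 4.76% of all features were. All 7 had a log2 difference below 0 as deposited, as did 67.9% of all features. Stip1, the bridge between HSP70 and HSP90, ran from 51.7 through 70.8 to 90.1 RPKM in Control mice and from 37.1 through 52.7 to 77.9 in HLU mice (log2 difference -0.38 ± 0.15). Chordc1 ran from 29.1 through 40.1 to 46.9 RPKM in Control and from 23.1 through 29.4 to 41.4 in HLU mice, with the same difference of -0.38 ± 0.14. In each of these genes 4 HLU mice lay below every Control mouse and 1 HLU mouse lay above the Control median. Ahsa1, which speeds the ATPase of HSP90 and had the highest level of the group, ran from 70.4 through 76.9 to 111 RPKM and from 58.8 through 68.2 to 86.5 (1.19-fold lower, not called). Among the rest, the immunophilin Fkbp4 was at 28.8 ± 7.35 and 24.2 ± 5.18 RPKM (-0.23 ± 0.18), and the p23 protein Ptges3 at 15.2 ± 2.82 and 12.5 ± 3.31 (-0.30 ± 0.16). The kinase adaptor Cdc37 was at 27.6 ± 6.99 and 25.3 ± 5.98 RPKM (-0.13 ± 0.19, and 0.01 after quantile normalization), and St13, which steadies HSP70, at 35.5 ± 5.69 and 30.1 ± 4.02 (-0.23 ± 0.11).

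All 8 subunits of the CCT ring had a log2 difference below 0, as did 67.9% of all features. Of the subunits 1 was called lower, where 4.76% of all features were. Log2 differences of the subunits ran from -0.34 to -0.15 with a median of -0.25, against -0.10 over all features. The summed level was 602 ± 76.9 RPKM in Control and 509 ± 67.7 in HLU mice. Cct3 ran from 21.5 through 25.6 to 31.4 RPKM in Control and from 15.9 through 21.1 to 22.6 in HLU mice. With all HLU values of Cct3 under the Control median, 5 under every Control mouse, its difference of -0.34 ± 0.11 was the one called. After median-of-ratios rescaling, differences of the ring ran from -0.25 for Cct3, no longer called, to -0.06 for Tcp1. Cct8, with the highest level, ran from 107 through 144 to 177 RPKM in Control and from 89.2 through 122 to 139 in HLU mice (-0.26 ± 0.14). Cct6a missed the 1.2-fold threshold narrowly, at 95.7 ± 14.1 against 79.7 ± 10.6 RPKM (-0.26 ± 0.11). Group means of the others, Control before HLU, were 39.6 ± 8.62 and 35.2 ± 5.10 RPKM for Tcp1, 122 ± 15.8 and 107 ± 17.8 for Cct2, 35.7 ± 6.64 and 30.4 ± 6.07 for Cct4, 57.0 ± 9.90 and 48.1 ± 6.86 for Cct5, and 86.4 ± 16.3 and 72.2 ± 14.4 for Cct7. The subunits occur once each per ring in the protein complex, whereas mean levels of their RNA ran from 22.7 RPKM for Cct3 to 128 for Cct8. These levels depend on the lengths of 1599 to 8504 bases that the authors' values imply.

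In mitochondria, both genes of the barrel-shaped folding chamber were called lower, and the HSP70 (Hspa9) and HSP90 (Trap1) of the same compartment were not called. Hspe1, the lid of the chamber, ran from 24.6 through 27.7 to 47.7 RPKM in Control mice and from 17.0 through 20.9 to 26.1 in HLU mice. For Hspe1, 6 HLU mice lay below every Control mouse, with a log2 difference of -0.48 ± 0.14. Hspd1, the barrel itself, ran from 51.8 through 63.1 to 101 RPKM in Control and from 42.3 through 54.5 to 65.6 in HLU mice. Its difference of -0.31 ± 0.14 was called with all mice and lost its call in 8 of the 16 fits that left out 1 mouse (Control 1, 2, 4 or 6, or HLU 1, 5, 6 or 7). Hspa9 ran from 52.5 through 78.2 to 91.5 RPKM and from 63.7 through 72.6 to 101 (0.02 ± 0.13). Trap1, the mitochondrial HSP90, was at 24.1 ± 2.91 and 23.9 ± 2.85 RPKM, with -0.01 ± 0.10 as deposited and 0.08 after median-of-ratios rescaling.

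**Figure D3:**
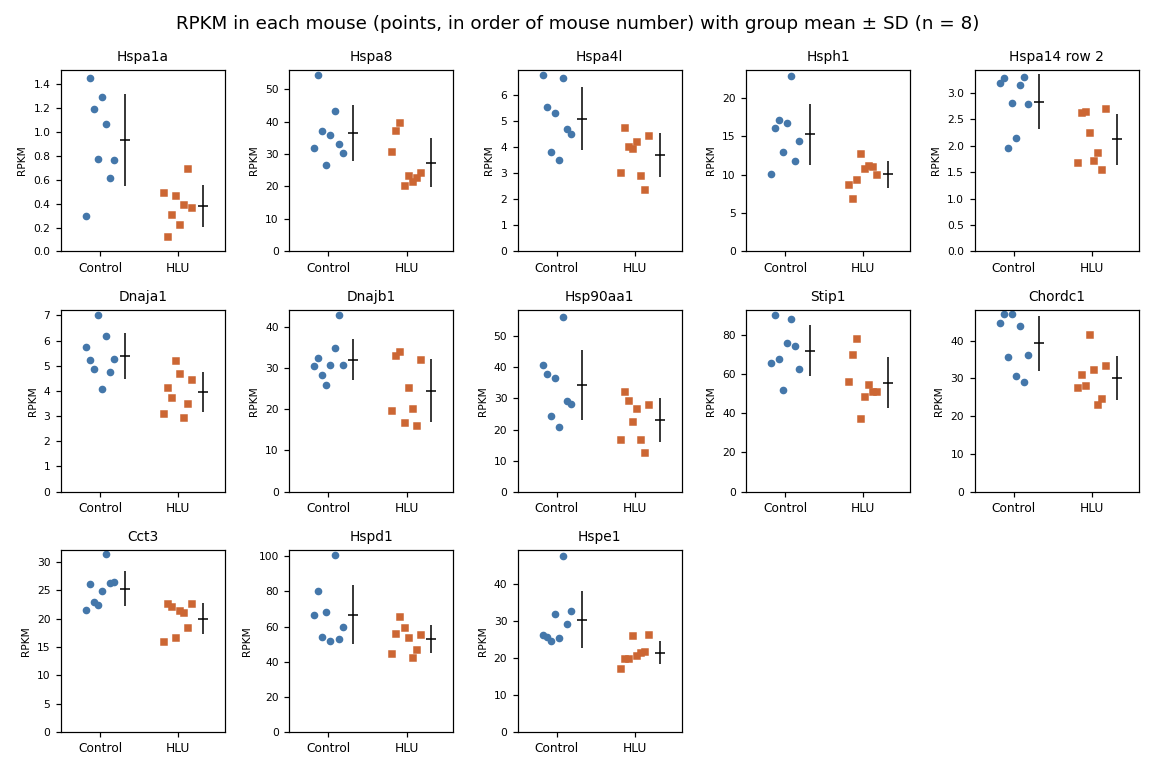
Each point is 1 mouse and the crosses give the group mean ± SD (n = 8) of RPKM for the 13 called members, on axes that start at 0. The groups overlap in every panel, and in Hspe1 the Control mouse at 47.7 RPKM stands above the others.

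The calls differed in how far they held under other processing. Hsph1, Dnaja1 and Hspe1 were called under all 12 alternatives other than leaving out single mice, and Hspa1a under the 11 in which it was tested. Hspa8, Stip1, Chordc1, Cct3, Hspd1 and Hspa14 row 2 were not called after median-of-ratios rescaling. Of the 12 alternatives, Hspd1 was called under 5, Stip1 under 6, Hspa8, Cct3 and Hspa14 row 2 under 7 each, and Chordc1 under 9. Hspa4l was called under 10, but not after quantile normalization or without the 3 libraries with the steepest GC slope. Dnajb1 and Hsp90aa1 were each called under 11. Leaving out any 1 mouse kept each call other than that of Hspd1.

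Differences between mice of the same group were wide for a few members, and some members followed measures of the whole library. The within-group SD on the log2 scale was 1.31 for Hspb1, 1.24 for Hspbp1 and 0.63 for Hsf1, against 0.17 for Hspa4 and Trap1. Members with a transcript GC content of 50% or more (13) had a median within-group SD of 0.38, and the other 25 had 0.27. For each library, the slope of its log2 values on GC content was taken over the features with a known GC, per 10 percentage points of GC. This slope ran from -0.48 to 0.40 in Control and from -0.60 to 0.26 in HLU mice, with medians of 0.01 and 0.07. Libraries with a steep negative slope were Control 1, Control 4 and HLU 4.

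A total of 12 relations between mice were tested on values centred within each group (n = 16), with two-sided p-values from 100000 permutations within groups and pairs picked after values had been seen. The adjusted p-values cover these 12 alone and not the pairs that could have been picked. Hspbp1 followed the GC slope with r = 0.944 (permutation p = 1e-05, the smallest they can give, adjusted p = 0.00012) and rho = 0.962 (permutation p = 1e-05, adjusted p = 0.00012). Without the 2 libraries farthest from the median slope r was 0.921, and it was 0.963 in Control and 0.953 in HLU mice. Hsf1 gave r = 0.927 (permutation p = 3e-05, adjusted p = 0.00018) and rho = 0.882 (permutation p = 0.0001, adjusted p = 0.0006), with 0.893 without the 2 farthest libraries. Hspb1 gave r = 0.742 (permutation p = 0.00217, adjusted p = 0.00651) and rho = 0.779 (permutation p = 0.00116, adjusted p = 0.00348), with 0.785 without the 2 farthest, 0.903 in Control and 0.471 in HLU mice. These members, with 53.4% to 61.7% GC, thus moved between mice with the GC slope of the library, whose part in the group differences was not tested beyond the GC correction of each library. Hsp90aa1, whose GC content is 43.7%, went the other way with r = -0.583 (permutation p = 0.0216, adjusted p = 0.0519) and rho = -0.632 (permutation p = 0.0107, adjusted p = 0.0258), and -0.721 without the 2 farthest. Without Control 1, Control 4 and HLU 4 its log2 difference was -0.51, against -0.58 with all mice, and was no longer called, and the call was kept after a GC correction of each library. Hspa8 gave r = 0.244 (permutation p = 0.377, adjusted p = 0.457) and rho = 0.247 (permutation p = 0.372, adjusted p = 0.486). The called member Chordc1, with 35.7% GC, was not set against the GC slope in a test. It was at 46.9 RPKM in Control 4 and 44.7 in Control 1. In Control 5 and Control 7, with the highest slopes of Control, it was at 30.6 and 29.1. Control 2, with a slope of -0.11, was at 46.9 RPKM. In HLU 4 it was at 41.4 RPKM, against 23.1 in HLU 6 and 24.5 in HLU 7. After the GC correction of each library its log2 difference was -0.31 and was called.

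**Figure D4:**
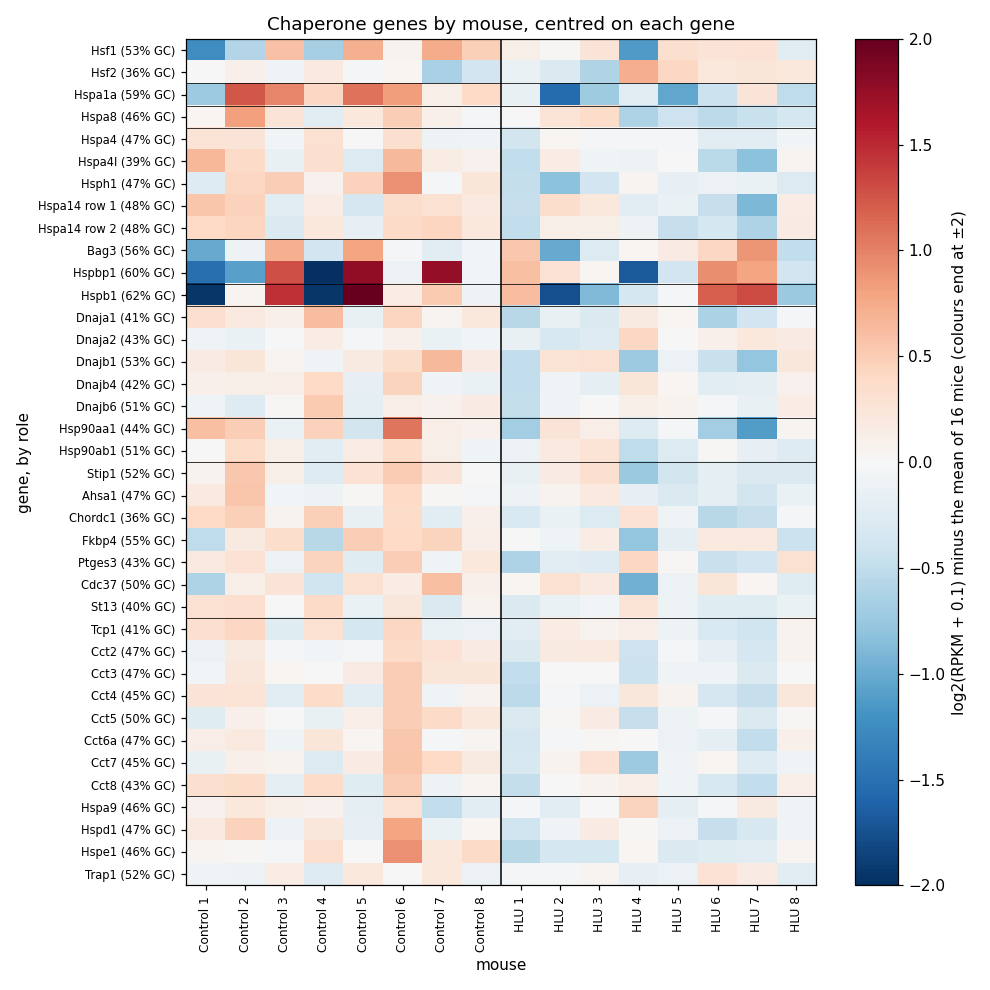
Colors give log2(RPKM + 0.1) of each tested member in each mouse, minus that member's mean over the 16 mice, with the GC content of its longest transcript after the name. Hspb1 and Hspbp1 have the deepest colors in both groups, low in Control 1, Control 4 and, for Hspbp1, HLU 4.

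Dnajb1 followed the erythroid genes between mice, in a pair that was picked after values had been seen. The erythroid score, the mean centred log2 value of 11 red cell genes, gave r = 0.922 with Dnajb1 (permutation p = 5e-05, adjusted p = 0.0002) and rho = 0.868 (permutation p = 0.00028, adjusted p = 0.00112), with 0.895 without the 2 farthest mice, 0.896 in Control and 0.949 in HLU mice. All 11 erythroid genes had a log2 difference below 0, with a median of -0.60, and 4 were called lower, of which Hbb-b1 went from 1271 ± 638 to 734 ± 306 RPKM. None of them was at 0, and their summed level was 3139 to 8808 RPKM in Control and 1706 to 4585 in HLU mice. With erythroid and granulocyte scores as covariates the log2 difference of Dnajb1 was -0.19 and was not called, and Stip1 (-0.24) and Cct3 (-0.20) also lost their calls. In that fit, 20 of 38 members were called lower, against 12.5% of all features, and Hsf1 and Hspbp1 higher, against 9.69%. There 7 members passed an adjusted p of 0.1 by limma, as did 4.68% of all features. Hsp90aa1 gave r = 0.387 with the erythroid score (permutation p = 0.159, adjusted p = 0.238) and rho = 0.441 (permutation p = 0.105, adjusted p = 0.21). Its r with this score was -0.113 in Control and 0.724 in HLU mice, and whether these differ was not tested. No other member was set against this score in a test, so whether it is particular to Dnajb1 was not tested. Cct2, for example, was at 85.1 and 89.5 RPKM in HLU 4 and HLU 7, with the lowest scores of HLU mice. It was at 129 and 130 RPKM in HLU 2 and HLU 3, with the highest.

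**Figure D5:**
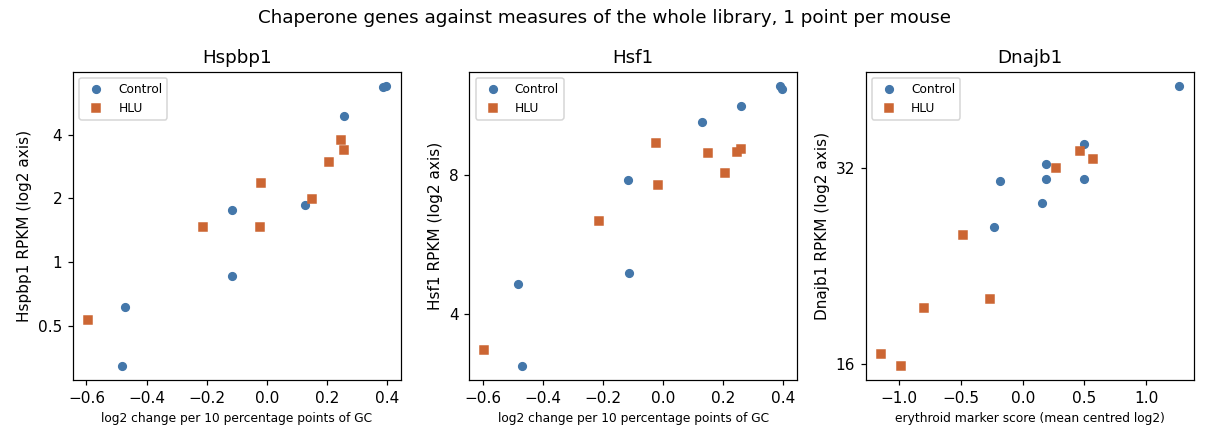
Each point is 1 mouse. RPKM of Hspbp1 and Hsf1 is plotted against the GC slope of the library, and RPKM of Dnajb1 against the erythroid score, all on log2 axes for RPKM, and points of both groups climb along each panel (r = 0.944, 0.927 and 0.922 on values centred within groups).

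Genes that share a complex or a promoter moved together unevenly between mice of the same group. Over the 28 pairs of CCT subunits, which share libraries, the within-group r had a median of 0.46 and ran from -0.08 to 0.96. The 21 pairs of cochaperones ran from -0.79 to 0.92 with a median of 0.13. Hspe1 and Hspd1, which start from the same stretch, gave r = 0.576 (permutation p = 0.0386, adjusted p = 0.0772) and rho = 0.379 (permutation p = 0.162, adjusted p = 0.243). This r rested on a few mice, since without the 2 farthest it was 0.172. Hspa1a and Hspa1b gave r = 0.501 (permutation p = 0.0638, adjusted p = 0.109) and rho = 0.421 (permutation p = 0.122, adjusted p = 0.21). Their r was 0.232 without the 2 farthest mice. The HSP90 genes gave r = 0.246 (permutation p = 0.381, adjusted p = 0.457) and rho = 0.235 (permutation p = 0.405, adjusted p = 0.486). Hsf1 gave r = 0.232 with Hspa1a (permutation p = 0.427, adjusted p = 0.466) and rho = 0.138 (permutation p = 0.625, adjusted p = 0.625). With Hsph1 it gave r = 0.156 (permutation p = 0.605, adjusted p = 0.605) and rho = 0.212 (permutation p = 0.474, adjusted p = 0.517).

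Beyond the members, chaperones of the same compartments were close to the median of all features. Of 54 further symbols (other J-domain proteins, BAG proteins, prefoldin, mitochondrial proteases and more), 44 were found and tested, and 1 was called higher and 0 lower. The one was Dnajc21, a J-domain protein of ribosome assembly, at 8.18 ± 0.950 RPKM in Control and 10.1 ± 1.79 in HLU mice (0.28 ± 0.12). Their median log2 difference was -0.08, and 0.02 after median-of-ratios rescaling. The chaperones of the endoplasmic reticulum, which fold secreted proteins, had 8 of 17 called lower and 0 higher with a median of -0.30, and 6 lower after that rescaling. Sdf2l1 went from 25.2 ± 5.84 to 14.6 ± 3.38 RPKM and the disulfide isomerase Pdia6 from 41.7 ± 4.03 to 30.6 ± 3.26, with adjusted p = 0.543 for both by limma. Of 31 proteasome genes, 0 were called in either direction (median -0.09). These lists were written with results of these mice known, and no difference between them and the heat shock chaperones was tested.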

How the data were processed

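RNA from the femoral cortical bone of 16 mice was sequenced with TruSeq v2 libraries on a HiSeq, and groups and mouse numbers were taken from the sample titles. The study's methods give 8 samples to a lane, which is also the number of mice in each group. The lane of each library is not given in the sources used here, so whether lanes went with groups was not tested. Alignment by the authors was with TopHat2, and they deposited RPKM, a read number scaled to gene length and library size. The submitters' processing notes name mm9 and DESeq2, and the counting tool, its strand setting and the annotation are not given in the sources used here. RPKM correct for length and library size but not for composition. The symbol Rnf135 stands on 3887 features, which were kept unnamed.

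The fit of HLU against Control used limma 3.58.1 (R 4.3.3, trend, equal weights) on log2 values of RPKM plus 0.1. Features entered it when they averaged 0.5 RPKM or more, and Benjamini-Hochberg adjustment covered all 16973. Differences are on this scale, which understates those of low genes. Since the files hold RPKM, the count test of the study was not used. Whole reads were recovered for 100% of these features (tolerance 0.05 reads) and fitted with voom as an alternative. Depth was 6412015 to 18377603 reads on listed features in Control and 6871686 to 16911257 in HLU libraries. No pair of libraries was identical (correlations 0.799 to 0.946).

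Members and lists were chosen with earlier results of these data known. Lowest, median and highest values are given for called members and for the highest-level member of each role, means for the rest, and at most 4 called genes from other lists. GC content came from the longest GENCODE M21 transcript of a symbol (14790 features, 87.1%), and promoter windows from RefSeq, with no other coordinates used. The comparison was tested on simulated data first. Mouse numbers were not taken to pair the groups (3 of 8 same-numbered pairs had correlated deviations above 0.1, range -0.17 to 0.51). Differently numbered pairs were not compared, so this check cannot tell whether the numbers pair mice. Alternatives were other pseudocounts, filters and scalings, a replicate block, marrow covariates, voom, a GC correction and leaving out libraries. Tables were made in Python 3.11.15 (pandas 2.3.3, numpy 2.4.6, scipy 1.17.1) and figures with matplotlib 3.10.9.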

Additional observations from a re-analysis of the deposited data

Results flagged for a closer look

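In 3 of 78 sets of 8 values (39 features in 2 groups) 1 mouse stood apart from the rest by Dixon's test, and chance alone gives about 1 in 20. Hspe1 in Control 6 was the highest of its group at 47.7 RPKM with 32.8 next, a gap of 0.647 of the group's range. St13 in HLU 4 was the highest at 39.2 RPKM with 31.2 next, a gap of 0.623 of the range. Dnajb6 in Control 4 was the highest at 5.18 RPKM with 4.00 next, a gap of 0.539 of the range. Control 4 and HLU 4 are also among the 3 libraries whose values fell most steeply with GC content. Without Control 6 the call of Hspe1 was kept and that of Hspd1 was lost.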

How the results depend on the processing

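The direction of the median difference of the chaperones, below 0, held under every alternative run, while the number of members called did not. The median of all features was also below 0 under each alternative except quantile normalization, where it was 0.001. The number of members called changed with the processing. This number was 13 as reported, all lower, where 4.76% of all features were called lower. It was 7 after median-of-ratios rescaling (2.32% of all features lower) and 7 with voom on recovered reads (2.36%). After quantile normalization it was 6 (2.14%), with a median log2 difference of members of -0.11. It was 22 with erythroid and granulocyte scores as covariates, 20 lower and 2 higher, where 3773 of all features were called. There 7 members passed an adjusted p of 0.1 by limma (lowest 0.0706), as did 795 of all features (4.68%). With these covariates Hsf1 turned to 0.68. The cause was not tested. Pseudocounts of 1 and 0.01 and no filter gave 13 members, with 4.3%, 4.64% and 3.54% of the features tested called lower. A minimum of 2 RPKM gave 12 (5.21%), without Hspa1a. Quantile normalization gave 460 features higher and 364 lower, and a GC correction 477 and 412. Of the alternatives chosen after seeing the data, that GC correction gave 9 members, where 2.77% of the features tested were called lower. Leaving out the 2 smallest libraries gave 9 (5.08% of all features), and leaving out the 3 libraries with the steepest GC slope 12 (5.41%). Leaving out 1 mouse at a time, also added later, gave 12 to 18 members, medians of -0.28 to -0.20 and 588 to 1748 features called in all, with 649 without Control 6, 659 without Control 7, 629 without HLU 1, 588 without HLU 7 and 1748 without HLU 2. The replicate block gave 13 members and 1039 features, gaining Cct7 and losing Hspd1, although the pairing check could not tell whether mice are paired by number. Depth limits Hspa1a and Hspa1b, with 4 to 70 reads a library.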
